A study of Mus musculus with 4 samples.

Results

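Dpep1 and Spink2 were 2 of the 56980 genes in the count tables. Both were chosen by symbol because earlier results of these data showed more UMIs and more positive cells in suprabasal keratinocytes of the TKO than of the Ctrl. Their TKO and Ctrl values are therefore given as a description, with no test, and tests are confined to genes that did not enter the choice. A UMI is a molecular tag that counts 1 captured RNA molecule.

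Single-cell RNA sequencing of sorted dorsal skin cells was used to ask how loss of H3K9 methyltransferases, the enzymes that place the repressive histone mark H3K9me3, alters keratinocyte lineages. Ctrl embryos carried Suv39h1 f/f, Suv39h2-/- and Setdb1 f/f alleles with no Cre (K14CreERT2-), and TKO embryos carried the same alleles with K14CreERT2+, so the Suv39h2 deletion was shared by both groups. Both groups received Tamoxifen, and the labels give E16.5 for all 4 embryos, whereas the study's litter list gives an earlier day for the litter it assigns to this assay. The recombinase is driven by the keratin 14 promoter of basal keratinocytes and was described as mosaic, so TKO libraries can hold unrecombined cells, and neither dermal nor immune cells are its target. There were 2 libraries in each group, each from 1 embryo. Errors of CPM means are therefore SDs over 2 embryos, whereas errors of log2 changes are SEs taken from the edgeR test. Cells were sorted as Epcam+ and integrin alpha 6+, and the labels call them basal epithelial cells, but the tables also held suprabasal, hair follicle, fibroblast and immune cells.

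Dpep1 encodes dipeptidase 1, a zinc enzyme anchored to the outer face of the plasma membrane. It cleaves cysteinylglycine, a product of glutathione breakdown, and converts leukotriene D4 to leukotriene E4. Spink2 encodes a secreted serine protease inhibitor with a Kazal domain, best known from testis and epididymis, where it restrains the sperm protease acrosin. In skin the best known relative is Spink5, which inhibits the kallikreins that shed the outer epidermal layers. In the epidermis, basal cells with Krt5 and Krt14 give rise to suprabasal cells that switch to Krt1 and Krt10 as they become spinous cells.

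Dpep1 (ENSMUSG00000019278) lies on the forward strand of chromosome 8 at 123908418 to 123928560 of GRCm39, and Spink2 (ENSMUSG00000053030) on the reverse strand of chromosome 5 at 77352953 to 77359318. No other annotated gene overlapped either of them. The 250 bases before the start shared by most protein-coding transcripts of each gene are shown because both genes were near silent in Ctrl spinous cells. Capitals mark CG dinucleotides, the sites of DNA methylation. The window is chr8:123912406-123912655 on the forward strand for Dpep1, whose start was shared by 7 of 11 protein-coding transcripts. It is chr5:77359319-77359568 on the reverse strand for Spink2, whose start was shared by 3 of 4. Each is written 5′ to 3′ from the GRCm39 genome.
Dpep1: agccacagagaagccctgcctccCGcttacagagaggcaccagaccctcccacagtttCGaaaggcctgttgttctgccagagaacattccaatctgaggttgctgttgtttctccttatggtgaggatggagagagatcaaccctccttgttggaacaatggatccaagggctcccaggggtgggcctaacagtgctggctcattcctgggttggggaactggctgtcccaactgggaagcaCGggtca
Spink2: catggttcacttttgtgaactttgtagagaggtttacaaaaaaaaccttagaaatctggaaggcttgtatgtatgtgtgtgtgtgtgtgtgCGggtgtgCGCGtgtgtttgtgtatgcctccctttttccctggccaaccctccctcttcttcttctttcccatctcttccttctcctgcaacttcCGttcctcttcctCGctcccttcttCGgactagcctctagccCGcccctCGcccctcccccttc
The Dpep1 window held 3 CG dinucleotides and the Spink2 window 8, against a median of 7 over the same window of 21594 protein-coding genes. In the Spink2 window 5 of the 8 lay within the last 64 bases before the start. The letters of the AP-1 motif TGANTCA, the TATA box TATAAA and the antioxidant response core TGACNNNGC, searched on both strands, were in neither window. They were in 6.21%, 11.9% and 9.62% of the windows of all genes. The 3′ assay does not show which start was used.

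After cells with fewer than 2000 detected genes or at least 10% mitochondrial UMIs and likely doublets were left out, 10764 cells remained, of which 9180 were keratinocytes. Genes that differed between genotypes, together with Dpep1 and Spink2, were left out of the clustering that built the classes. Ctrl replicates 1 and 2 held 1348 and 1545 basal-like, 494 and 379 early suprabasal-like, 310 and 194 spinous-like and 494 and 658 hair follicle-like cells. TKO replicates 1 and 2 held 928 and 849, 156 and 258, 70 and 157, and 292 and 405 cells of these classes. The names followed marker genes chosen with earlier results of these data known: Krt10 was between 26320 and 36543 CPM (UMIs of a gene scaled to a common total of UMIs) in Ctrl and TKO 2 spinous-like cells, 18536 in TKO 1, and at most 150 in basal-like cells. Krt5 was at most 632 CPM in spinous-like cells and at least 3964 in basal-like cells. The basal-like class also held a cluster of 389 cells whose leading genes included Hbb-bt, Hbb-bs, Hba-a1 and Hba-a2, which encode haemoglobin chains, and no basal marker. These 4 genes summed to 1588 CPM there and to 20.1 to 21.8 CPM in the other basal-like clusters, while its Krt5 and Krt14 were 4227 and 7152 CPM. Within the spinous-like class, Krt1 was 34136 and 35023 CPM in Ctrl and 17348 and 26491 in TKO, so that TKO cells of this class carried less Krt1. The basal keratins were higher in them, with Krt14 at 76.6 and 246 CPM in Ctrl against 292 and 1110 in TKO and Krt5 at 139 and 332 against 632 and 542. The part of these keratin shifts in the results was not tested. Median depth per spinous-like cell was 33900 and 26713 UMIs in Ctrl against 41926 and 38248 in TKO. In the check of the labels, Setdb1 in basal-like cells was 72.7 and 58.0 CPM in Ctrl and 39.8 and 45.1 in TKO (log2 change −0.61 ± 0.15 SE, adjusted p = 0.0455, edgeR quasi-likelihood test), while Suv39h1 was not called (adjusted p = 0.392) and Suv39h2 UMIs were present in both groups. In the suprabasal classes Setdb1 was not called, at 70.1 and 58.4 CPM in Ctrl against 42.7 and 39.1 in TKO early suprabasal-like cells (adjusted p = 0.0784) and 41.1 and 47.9 against 26.8 and 34.2 in spinous-like cells (adjusted p = 0.151, edgeR for all). Whether these 3′ tags lie outside the deleted exons is not given in the sources used here. Of the keratinocyte barcodes, 6 were seen in more than 1 library.

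Dpep1 had opposite layer orders in the 2 genotypes. In Ctrl it was sparse and, of the 4 classes, highest in basal-like cells, with 175 and 146 UMIs (5.95 and 5.12 CPM) in the 2 libraries. It was at 22 and 20 UMIs (1.87 and 2.68 CPM) in early suprabasal-like cells and at 0 UMIs in all 504 Ctrl spinous-like cells. The 0 counts allow a share of positive cells of up to 0.968% in Ctrl 1 and 1.55% in Ctrl 2, by counting error alone.

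In the TKO the order was turned around. Basal-like cells held 218 and 112 UMIs (7.20 and 4.45 CPM), which overlapped the Ctrl values. Early suprabasal-like cells held 103 and 191 UMIs (18.9 and 22.9 CPM), and spinous-like cells held 238 and 350 UMIs (81.7 and 59.8 CPM). Both TKO libraries thus lay above both Ctrl libraries in the suprabasal classes and on either side of them in basal-like cells. For scale, both TKO levels were above both Ctrl levels for 32.1% of all genes tested in spinous-like cells and for 28.8% in early suprabasal-like cells. In TKO 1 and TKO 2 the spinous-like level was 11.3 and 13.4 times the basal-like level of the same library.

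In means, Dpep1 in spinous-like cells was 0 CPM in Ctrl against 70.7 ± 15.5 CPM in TKO (SD, n = 2). Set against a floor of 3 UMIs over both Ctrl libraries, this was at least 352-fold higher. In the early suprabasal-like class it was 2.28 ± 0.57 CPM in Ctrl against 20.9 ± 2.83 in TKO (SD, n = 2), a ratio of the pooled levels of 9.76 (95% counting interval 7.05 to 13.8). In basal-like cells the means were 5.54 ± 0.59 and 5.82 ± 1.95 CPM, and the ratio was 1.07 (0.918 to 1.26). The haemoglobin-led cluster held 4 and 4 of the Ctrl against 20 and 8 of the TKO basal-like UMIs (2.06 and 2.41 against 7.74 and 3.91 CPM). Without that cluster, an alternative added after the data were seen, basal-like Dpep1 was 6.23 and 5.29 CPM in Ctrl against 7.15 and 4.49 in TKO, and the groups still overlapped. Hair follicle-like cells had 35 and 29 UMIs (2.71 and 2.23 CPM) in Ctrl and 54 and 27 UMIs (5.19 and 2.27 CPM) in TKO, so TKO 2 lay between the Ctrl libraries. Intervals cover counting error only, since 4 libraries are the units of comparison.

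Spink2 was close to absent from Ctrl keratinocytes, with 6 UMIs in Ctrl 1 and 3 in Ctrl 2 over all classes. In basal-like cells it had 1 and 2 UMIs in Ctrl against 4 and 5 in TKO, none of these levels above 0.199 CPM. Early suprabasal-like cells had 2 and 0 UMIs in Ctrl against 21 and 117 UMIs in TKO (3.86 and 14.05 CPM). In spinous-like cells it had 2 and 1 UMIs in Ctrl against 122 and 286 in TKO (41.9 and 48.8 CPM). The groups did not overlap in either suprabasal class, nor in basal-like or hair follicle-like cells, where no level was above 0.199 CPM. For scale, both TKO levels were above both Ctrl levels for 25.5% to 32.1% of all genes tested, depending on the class. The 2 TKO libraries differed by more in the early class than in the spinous class. The early-class values depended on how that class was built. Where the components were not corrected for library, the class held 118 cells, 13 and 21 of them from TKO 1 and TKO 2, and Spink2 was at 0 UMIs in both genotypes.

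The Spink2 means in spinous-like cells were 0.192 ± 0.006 CPM in Ctrl against 45.4 ± 4.93 in TKO (SD, n = 2), a pooled ratio of 244 with a counting interval of 83.0 to 1189 that is wide because Ctrl held 3 UMIs. In early suprabasal-like cells the TKO mean was 8.96 ± 7.20 CPM (SD, n = 2) and the ratio to the 2 Ctrl UMIs was 96.2 (26.1 to 803). The difference from the Ctrl mean was 8.87 CPM with both TKO libraries, 13.96 without TKO 1 and 3.78 without TKO 2. Hair follicle-like cells held 0 Spink2 UMIs in Ctrl and 3 in TKO. Early suprabasal-like and spinous-like cells were 14.5% and 23.2% of the keratinocytes of TKO 1 and TKO 2, but they held 94.7% and 96.6% of the Spink2 UMIs and 55.0% and 78.5% of the Dpep1 UMIs. In Ctrl 1 and Ctrl 2 the same classes were 28.3% and 19.2% of keratinocytes and held 9.02% and 10.1% of the Dpep1 UMIs.

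The edgeR test called 2.93% of 11555 genes in spinous-like, 1.9% in early suprabasal-like, 11.8% in basal-like and 10.6% in hair follicle-like cells at an adjusted p under 0.05. Calls of higher and lower genes were 2.23% and 0.692% in spinous-like, 1.16% and 0.734% in early suprabasal-like, 7.54% and 4.21% in basal-like and 6.09% and 4.53% in hair follicle-like cells. Dpep1 passed the expression filter in all 4 classes, in spinous-like cells through the TKO libraries alone, as Ctrl held 0 UMIs. Spink2 passed it in the suprabasal classes alone, where it did so through the TKO libraries.

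**Figure D1:**
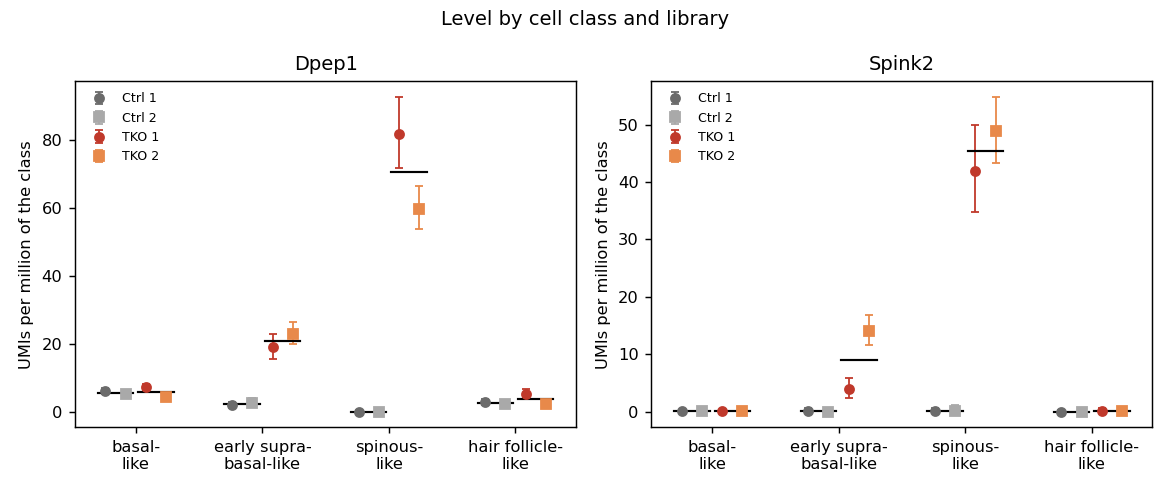
CPM of Dpep1 (left) and Spink2 (right) by cell class, with 1 point per library, 95% Poisson counting intervals as bars and group means as black lines. In spinous-like cells the TKO points of Dpep1 stand at 81.7 and 59.8 CPM over Ctrl points at 0, and basal-like points overlap.

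Cells with a UMI of either gene were also more frequent in both TKO libraries. Dpep1 was seen in 23 of 70 spinous-like cells of TKO 1 (32.9%, Clopper-Pearson 95% interval 22.1 to 45.1%) and in 68 of 157 of TKO 2 (43.3%, 35.4 to 51.4%). Spink2 was seen in 36 of 70 (51.4%, 39.2 to 63.6%) and 79 of 157 (50.3%, 42.2 to 58.4%). In Ctrl, 0 of 504 spinous-like cells had Dpep1 and 3 had Spink2.

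As TKO cells were deeper, each cell was also thinned to 5000 UMIs. At that depth Dpep1 was in 20% and 14.01% of TKO and 0% of Ctrl spinous-like cells. In early suprabasal-like cells it was in 9.62% and 9.34% of TKO against 1.22% and 1.34% of Ctrl cells, and in basal-like cells in 2.81% and 2.005% against 3.003% and 1.97%. Spink2 at equal depth was in 11.4% and 18.5% of TKO spinous-like cells and 2.56% and 5.06% of TKO early suprabasal-like cells, against 0% and 0.521% and 0.203% and 0% in Ctrl.

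Free RNA was judged from immune-like cells, taken as a type with little of either gene. With median depths of 13390 to 18412 UMIs, 3 of 702 immune-like cells (0.427%) had Dpep1 and 0 had Spink2, which allows a share of up to 0.427%. The Spink2 shares of Ctrl suprabasal classes, at most 0.645% from 2 cells, could not be told apart from this background. The Dpep1 share of Ctrl basal-like cells, 10.1% and 7.51% as counted at median depths of 20656 and 17084 UMIs, was above it.

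**Figure D2:**
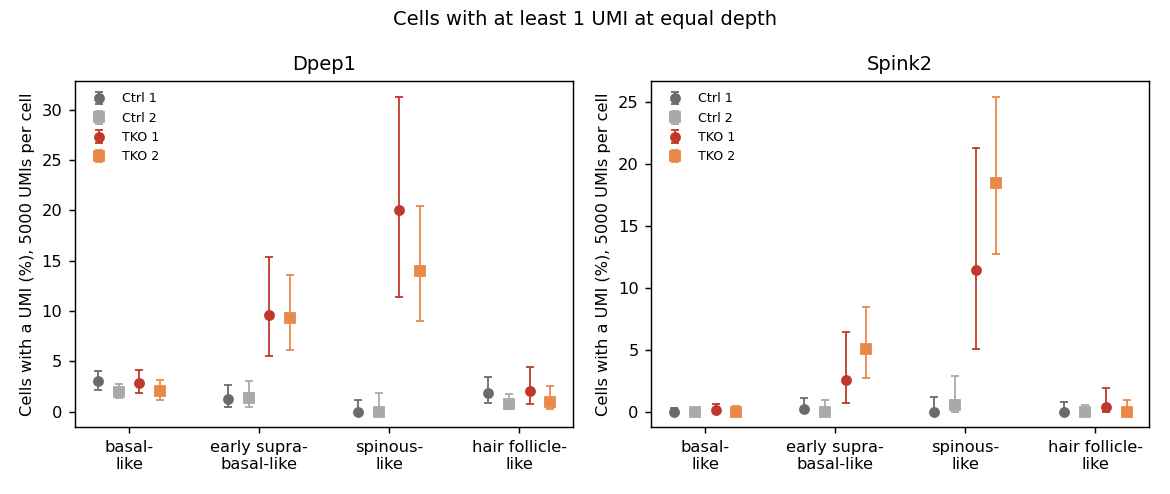
Percent of cells with at least 1 UMI of Dpep1 (left) or Spink2 (right) after each cell was thinned to 5000 UMIs, by class and library, with Clopper-Pearson 95% intervals. Both TKO libraries exceed both Ctrl libraries in early suprabasal-like and spinous-like cells, and the basal-like points overlap for Dpep1.

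Fibroblast-like cells, which were left out of the keratinocytes, also held Dpep1. They held 111 and 124 UMIs in Ctrl against 233 and 194 in TKO (67.7, 84.5, 63.6 and 92.0 CPM in that order), and 251 of 516 of them were positive. The genotypes overlapped there. As fibroblast RNA could enter other droplets, Dpep1 was set beside fibroblast markers. The sum of all 7 markers was 11.5 and 28.1 CPM in Ctrl and 37.1 and 9.90 in TKO spinous-like cells, and in basal-like cells it was 807 to 1373 CPM, nearly all of it Dcn. Pdgfra, a defining marker, was at most 0.393 CPM in spinous-like cells. Per 1000 UMIs of the 6 markers other than Dcn, fibroblast-like cells held 2.03 to 2.61 Dpep1 UMIs, whereas TKO spinous-like cells held 7000 and 12963 and Ctrl basal-like cells 771 and 463. Dcn was left out after its values were seen. Per 1000 UMIs of all 7 markers, the values were 1.81 to 2.38 in fibroblast-like, 2204 and 6034 in TKO spinous-like and 4.83 and 3.73 in Ctrl basal-like cells. TKO basal-like cells had 7.09 and 5.51, and early suprabasal-like cells 21.6 and 17.6 in Ctrl against 176 and 448 in TKO. Hair follicle-like cells had 1.37 and 1.25 in Ctrl and 1.16 in TKO 2, below the fibroblast-like range, and 3.10 in TKO 1. For basal-like and hair follicle-like cells the gap to fibroblast-like cells thus depended on the choice of markers, and the part of fibroblast RNA in their Dpep1 was not tested. In TKO spinous-like cells, 122 of 238 and 302 of 350 Dpep1 UMIs were in cells with none of those 6 markers. Spink2 in fibroblast-like cells was between 1.22 and 5.69 CPM over the 4 libraries.

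In TKO both genes were higher in cells with more Krt1 and Krt10. When all keratinocytes were sorted by the share of their UMIs from Krt1 plus Krt10, with no use of clusters, Dpep1 in TKO 1 was 6.37, 11.9, 52.4 and 95.7 CPM in cells under 0.1%, from 0.1 to 1%, from 1 to 4% and at 4% or more. In TKO 2 the values were 3.81, 14.3, 39.4 and 53.4 CPM. In Ctrl 1 and Ctrl 2 Dpep1 went the other way, from 4.82 and 4.07 CPM in the lowest bin to 0.161 and 0 in the highest. Spink2 in the 4 bins was 0.133, 2.86, 27.0 and 31.9 CPM in TKO 1 and 0.366, 6.93, 24.3 and 47.8 in TKO 2, and at most 0.324 CPM in any Ctrl bin. From 1 to 4%, where the bins held 96 and 166 TKO and 232 and 159 Ctrl cells, both TKO libraries lay above both Ctrl libraries for both genes.

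**Figure D3:**
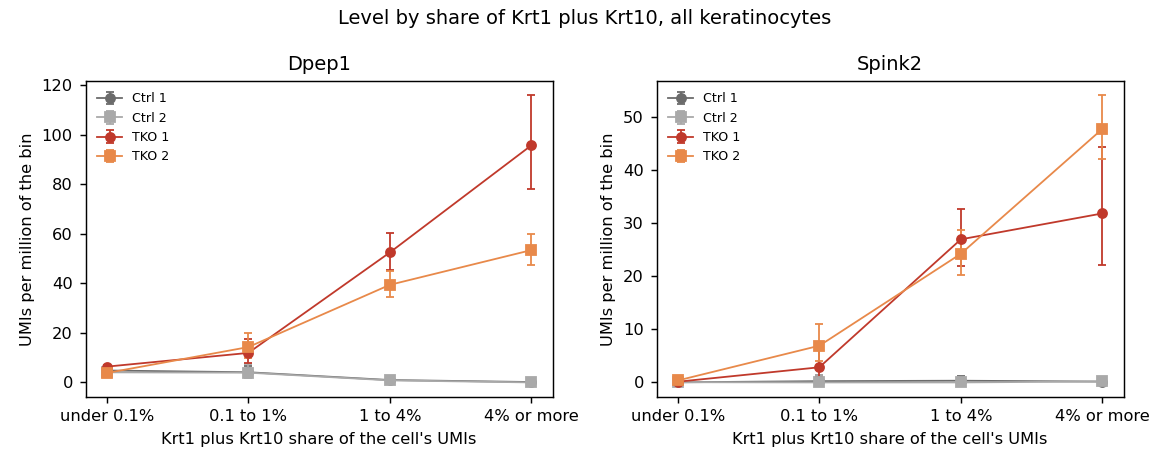
CPM of Dpep1 (left) and Spink2 (right) in keratinocytes binned by the percent of their UMIs from Krt1 plus Krt10, with 1 line per library and 95% Poisson intervals. Dpep1 in Ctrl goes from 4.82 and 4.07 CPM in the lowest bin to 0.161 and 0 in the highest, and both TKO libraries are higher in the highest bin than in the lowest for both genes.

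The early suprabasal-like class joined 3 clusters that differed in these genes. The main cluster, led by Ctsc, Zfp750 and Mgst1, had 23.1 and 25.7 CPM of Dpep1 in TKO against 1.09 and 1.44 in Ctrl, and 5.48 and 16.2 CPM of Spink2 in TKO. A dividing cluster, led by the mitotic genes Top2a and Cdk1 among others, had 9.46 and 9.61 CPM of Dpep1 in TKO against 5.81 and 7.25 in Ctrl. It held 0 Spink2 UMIs in both Ctrl libraries and 2 and 16 in TKO (0.996 and 8.55 CPM). In a shallow cluster with a median depth of 0.402 of the other cells, Dpep1 was at 8 and 13 UMIs in 16 and 21 TKO cells against 1 and 0 in 61 and 26 Ctrl cells, while Spink2 had 1 UMI there. Without this cluster, an alternative added after the data were seen, the TKO minus Ctrl difference of the class was 17.6 CPM for Dpep1 in place of 18.7 and 9.02 for Spink2 in place of 8.87. The clusters left unnamed held 11, 4, 6 and 9 Dpep1 UMIs in Ctrl 1, Ctrl 2, TKO 1 and TKO 2. Among them a small cluster with periderm genes such as Krt4 and Psca had 2 and 6 Spink2 UMIs in 9 and 11 TKO cells and 0 in 21 Ctrl cells.

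Both genes were unevenly spread over TKO cells. In spinous-like cells, 16 cells of TKO 1 and 32 of TKO 2 had 5 or more Dpep1 UMIs, with a highest value of 32 and 19, and the 5 highest cells held 50% of the UMIs in TKO 1 and 22.6% in TKO 2. Positive cells had a mean of 10.3 and 5.15 UMIs. Spink2 had 5 or more UMIs in 5 and 20 cells, with means of 3.39 and 3.62 UMIs per positive cell, and its 5 highest cells held 47.5% and 25.5% of the UMIs.

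A few TKO basal-like cells also carried many Dpep1 molecules. In TKO 1, 8 basal-like cells had 5 or more UMIs and together 79 of the 218, and in TKO 2 there were 3 such cells with 20 UMIs. No Ctrl basal-like cell had more than 4. These 11 cells had at most 0.0244% of their UMIs from Krt1 plus Krt10 and 0 Spink2 UMIs. Hair follicle-like cells held 3 and 1 cells of this kind in TKO and 0 in Ctrl. The basal-like level overlapped between genotypes while these cells were seen in TKO alone, and their difference was not tested.

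Dpep1 and Spink2 were found in the same cells and also apart. In TKO 1 spinous-like cells, 18 cells had both, 5 Dpep1 alone, 18 Spink2 alone and 29 neither. In TKO 2 the numbers were 42, 26, 37 and 52. Spink2 was in 78.3% and 61.8% of Dpep1-positive and in 38.3% and 41.6% of Dpep1-negative cells. The product of the shares of each gene gives 11.8 and 34.2 cells with both. Cells with both were also deeper, with medians of 51017 and 43240 UMIs against 37313 and 34614 in cells without Dpep1, and the part of depth was not tested. Among early suprabasal-like cells 8 and 30 TKO cells had both.

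**Figure D4:**
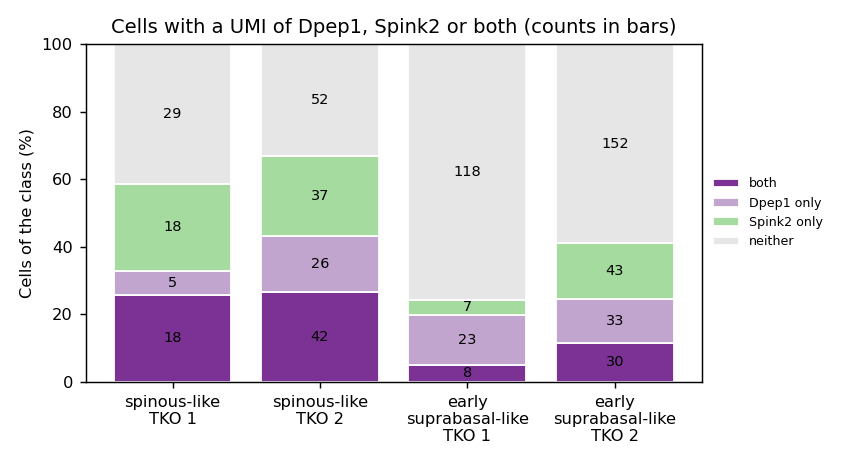
Percent of spinous-like and early suprabasal-like cells of each TKO library with UMIs of both genes, of 1 gene or of neither, with the number of cells in each bar. Cells with both make up 18 of 70 and 42 of 157 spinous-like cells, and cells with Spink2 alone are 18 and 37.

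As recombination was mosaic, the genes were set beside 5 transcripts that earlier results of these data showed to be near silent in Ctrl: Gm11884, 1700030N03Rik, Col28a1, Gm42653 and Npffr1. At 5000 UMIs per cell, a cell with at least 1 UMI of the 5 was called marked. No Ctrl spinous-like cell was marked, against 46 of 70 and 110 of 157 in TKO. The 5 were chosen as near silent in Ctrl, so the lack of marked Ctrl cells follows from that choice. Dpep1 was in 23.9% (12.6 to 38.8%) of marked and 12.5% (2.66 to 32.4%) of unmarked spinous-like cells of TKO 1, and in 17.3% (10.7 to 25.7%) and 6.38% (1.34 to 17.5%) of those of TKO 2. Spink2 was in 13.0% and 8.33% in TKO 1 and in 20.9% and 12.8% in TKO 2. In spinous-like cells all 4 pairs had the higher share in marked cells, and the intervals of each pair overlapped. In early suprabasal-like cells Dpep1 was in 11.3% (5.99 to 18.9%) of marked and 6% (1.25 to 16.55%) of unmarked cells in TKO 1 and in 13.5% (8.59 to 19.96%) and 2.94% (0.611 to 8.36%) in TKO 2, where the intervals did not overlap. Spink2 in early suprabasal-like cells did not keep one order, with 1.89% of marked and 4% of unmarked cells in TKO 1 and 6.45% and 2.94% in TKO 2. In basal-like cells Dpep1 was in 3.09% of marked and 2.35% of unmarked cells of TKO 1 and in 2.13% and 1.85% of those of TKO 2. Cells of a library are not replicates, and these shares were not tested. A recombined cell can lack a UMI of the 5 at this depth. The 5 also differed by class in TKO. Gm11884, 1700030N03Rik and Col28a1 were higher in spinous-like than in basal-like cells, with Col28a1 at 207 and 443 against 13.6 and 29.7 CPM. Gm42653 and Npffr1 were lower there. The part of layer in the marking was not tested.

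Genes near the members were not used in choosing them and could be tested. Within 500 kb the tables held 96 genes around Dpep1 and 29 around Spink2, of which 26 and 11 passed the filter in at least 1 class. In all, 6 of these 37 neighbours (16.2%) were called in at least 1 class, against 16.1% of all 17882 genes tested. The neighbours as a set were thus called about as often as other genes.

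Around Dpep1, the lncRNA Gm4316, which ends 2.91 kb before Dpep1 on the same strand, was the nearest called gene. It had 43 and 42 UMIs in Ctrl against 38 and 33 in TKO basal-like cells (1.46, 1.47, 1.25 and 1.31 CPM in that order), and 2 and 1 in Ctrl and 10 and 16 in TKO spinous-like cells (0.188, 0.196, 3.43 and 2.73 CPM). In spinous-like cells it was called higher (log2 change 3.76 ± 0.57 SE, adjusted p = 0.0285, edgeR quasi-likelihood test), but the call rested on all 4 libraries. It was lost without Ctrl 1, Ctrl 2 or TKO 1, with DESeq2 and under the replicate block (largest adjusted p 0.391), and the gene was under the filter without TKO 2 and at 5000 UMIs per cell. It was under the filter in early suprabasal-like cells, at 3 and 1 UMIs in Ctrl against 22 and 10 in TKO (0.256, 0.134, 4.05 and 1.201 CPM), and its TKO 2 level there lay below that of TKO 2 basal-like cells.

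The other nearest genes to Dpep1 did not follow it. Chmp1a, an ESCRT gene 2.44 kb beyond its end, was 88.5 and 74.2 CPM in Ctrl and 76.9 and 66.8 in TKO spinous-like cells (log2 change −0.28 ± 0.16 SE, adjusted p = 0.451, edgeR). Sult5a1, a sulfotransferase gene 22.6 kb away, was called lower in basal-like (−0.60 ± 0.12, adjusted p = 0.0303) and hair follicle-like cells (−0.74 ± 0.12, adjusted p = 0.0145). The pseudogene Rps12-ps9 was called lower in basal-like cells (−0.54 ± 0.13, adjusted p = 0.0439), where reads could be shared with its parent gene. Each of these calls was lost without Ctrl 2, and those in basal-like cells also without Ctrl 1 and without TKO 1, with adjusted p-values over the alternatives of up to 0.182 for Sult5a1 and 0.263 for Rps12-ps9. Spata33 and Cpne7 were not called in any class.

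Around Spink2, Hopx was called higher in both suprabasal classes. Hopx, a homeodomain protein without DNA binding that is known in differentiating epidermis, lies 89.9 kb away on the same strand. Hopxos, which overlaps it on the other strand, had at most 8 UMIs in any class and library. In spinous-like cells it was 29.5 and 24.5 CPM in Ctrl and 238 and 414 in TKO (log2 change 3.50 ± 0.30 SE, adjusted p = 0.00702, edgeR), and the call held in each of 15 alternative fits. In early suprabasal-like cells it was 6.82 and 9.79 CPM in Ctrl and 73.4 and 129 in TKO (3.603 ± 0.36, adjusted p = 0.0148), a call lost where the components were not corrected for library and the class held 118 cells (adjusted p = 0.327). In basal-like cells it was not called (0.13 ± 0.37, adjusted p = 0.858).

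The genes between and beside them behaved otherwise. Rest, a repressor of neuronal genes 48.8 kb on the other side of Spink2, was 40.3 and 57.3 CPM in Ctrl and 68.6 and 54.5 in TKO spinous-like cells and was not called in any class (adjusted p = 0.606 in spinous-like cells). Igfbp7, a secreted insulin-like growth factor binding protein gene 134 kb away, was called higher in basal-like cells alone (2.20 ± 0.29, adjusted p = 0.00896), a call that was lost without Ctrl 2 (adjusted p = 0.0537), and its difference between classes was not tested. The other nearest genes in the tables, Chaer1, Gm15831, Gm19060, Mir5098 and ENSMUSG00000120897, were under the filter in every class.

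**Figure D5:**
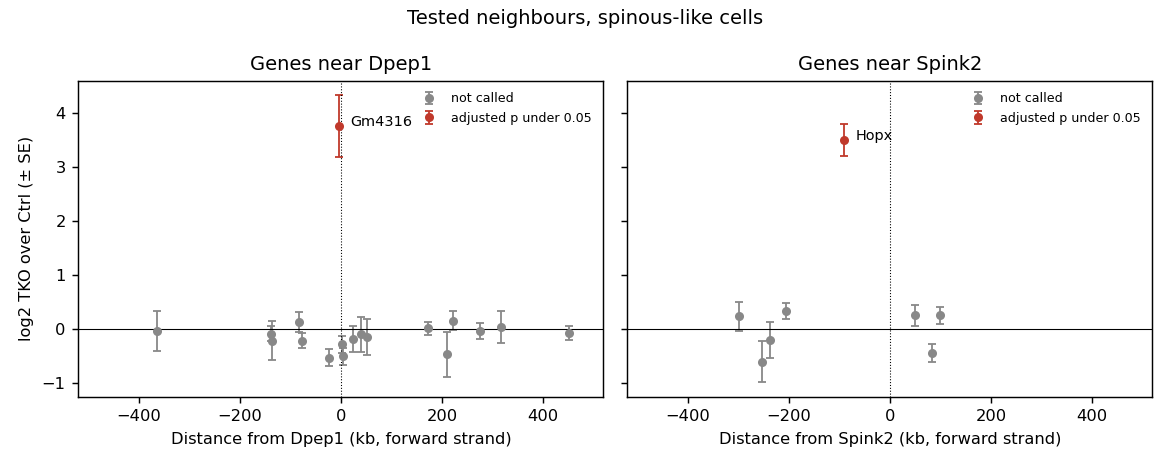
Log2 TKO over Ctrl with its SE for the genes within 500 kb of Dpep1 (left, 18 genes) and Spink2 (right, 8 genes) that were tested in spinous-like cells, by distance in kb. Gm4316 at 3.76 and Hopx at 3.50 are the called genes, and the members themselves are not drawn.

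The pathways in which the members act were described by lists chosen with earlier results known. Of 81 listed genes other than the members, 48 passed the filter and 16 (33.3%) were called in at least 1 class, against 16.1% of all genes tested. In early suprabasal-like cells 1 of 40 tested list genes (2.5%) was called, Spink5, near the 1.9% of all genes. In spinous-like cells 3 of 38 (7.89%) were called, Slc7a11, Wfdc5 and Klk13, beside 2.93% of all genes. In basal-like cells 11 of 44 (25%) were called beside 11.8% of all genes, and in hair follicle-like cells 10 of 39 (25.6%) beside 10.6%.

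The other metallo-dipeptidases were close to absent, with 11 UMIs of Dpep2, summed over its 2 gene identifiers, and 2 of Dpep3 in all 4 classes and libraries. Of the 16 genes of the cysteinyl leukotriene pathway, 6 were tested in spinous-like cells and none was called by edgeR, with a median log2 change of −0.32 against 0.00 for all genes. Among the genes that make leukotrienes, Alox5 and Ltc4s had 11 and 19 UMIs over the 4 classes and Alox5ap, which activates the Alox5 enzyme, 271, while Lta4h, Mgst2 and Mgst3 had 6357, 4738 and 24516. Oxgr1, a receptor for leukotriene E4, was at 0. In basal-like cells 2 of 8 tested were called lower, beside 4.21% of all genes, Ltb4r1, a leukotriene B4 receptor (−1.08 ± 0.23, adjusted p = 0.0318), and Mgst2, a leukotriene C4 synthase of non-blood cells (−1.01 ± 0.25, adjusted p = 0.0498), and Mgst2 was also called lower in hair follicle-like cells (−1.35 ± 0.30, adjusted p = 0.0355, edgeR for all). Ltb4r1 lost its call under 4 of 16 alternatives (largest adjusted p 0.181), Mgst2 in basal-like cells under 9 of 16, the fit without the haemoglobin-led cluster among them (0.419), and Mgst2 in hair follicle-like cells under 8 of 15 (0.450), and those in basal-like cells were lost without either Ctrl library. The Mgst2 calls were also lost without TKO 1, and that in hair follicle-like cells without Ctrl 2 or TKO 2.

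Of the 20 genes of glutathione synthesis and breakdown, 15 were tested in spinous-like cells and 1 was called. This was Slc7a11, the cystine importer that feeds glutathione synthesis, at 84.1 and 49.5 CPM in Ctrl and 271 and 259 in TKO (log2 change 1.88 ± 0.26 SE, adjusted p = 0.025, edgeR), and the call was lost without either TKO library (largest adjusted p 0.0562). Slc7a11 was also called higher in basal-like (2.02 ± 0.38, adjusted p = 0.0242) and hair follicle-like cells (2.44 ± 0.41, adjusted p = 0.0155, edgeR for both). Its hair follicle-like call was lost at 5000 UMIs per cell and where the components were not corrected for library (largest adjusted p 0.117, edgeR). In basal-like cells, where 11.8% of all genes were called, 5 of 15 were called, all higher. Beside Slc7a11 these were Gclm, the regulatory subunit of the rate-limiting ligase (0.78 ± 0.13), the γ-glutamylcyclotransferase Ggct (0.76 ± 0.16), and Lap3 (0.57 ± 0.12) and Cndp2 (0.78 ± 0.19), which like Dpep1 cleave dipeptides, with adjusted p-values of 0.0168, 0.0321, 0.0284 and 0.0466. In hair follicle-like cells Slc7a11, Ggct and Cndp2 were called higher and Gclc, the catalytic subunit of that ligase, lower (−0.73 ± 0.17, adjusted p = 0.0368). Without Ctrl 2 all 5 basal-like calls and those of Gclc, Ggct and Cndp2 in hair follicle-like cells were lost, and without Ctrl 1 all 5 basal-like calls and that of Ggct. Without TKO 1 the calls of Cndp2 in basal-like cells and of Gclc and Ggct in hair follicle-like cells were lost, and without TKO 2 that of Ggct in hair follicle-like cells, with adjusted p-values over the alternatives of up to 0.636. No gene of the list was called by edgeR in early suprabasal-like cells, where Slc7a11 was 18.7 and 5.36 CPM in Ctrl against 88.4 and 124 in TKO and missed the threshold (3.06 ± 0.52, adjusted p = 0.053). Of the γ-glutamyl transferase family, whose enzymes act just before Dpep1, Ggt1, Ggt5 and Ggt7 had 23, 52 and 80 UMIs in all and Ggt6 had 1176. Ggt6 was not called in any class, and in spinous-like cells it was 15.3 and 19.4 CPM in Ctrl against 12.7 and 12.1 in TKO (log2 change −0.56 ± 0.22 SE, adjusted p = 0.269, edgeR).

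Among the 12 other genes of the Spink family, 4 passed the filter in any class. Spink5 was called higher in early suprabasal-like cells, from 2.30 and 1.74 CPM in Ctrl to 16.7 and 13.7 in TKO (log2 change 2.83 ± 0.28 SE, adjusted p = 0.0148, edgeR), and in basal-like cells (1.78 ± 0.40, adjusted p = 0.0381). In spinous-like cells it was 65.6 and 39.7 CPM in Ctrl and 129 and 185 in TKO and missed the threshold (adjusted p = 0.0573). Unlike Spink2, it was thus present in Ctrl spinous-like cells. Its early suprabasal-like call was lost under 5 of 15 alternatives and its basal-like call under 4 of 15, including the fits without Ctrl 2 for both and without Ctrl 1 or TKO 1 for basal-like cells (largest adjusted p 0.327 and 0.224). Spink8, Spink10 and Spink13 were not called, and Spink6, Spink7, Spink11, Spink14 and Spinkl were at 0 UMIs.

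Of the 26 epidermal serine proteases and their inhibitors, 14 were tested in spinous-like cells. Wfdc5, a whey acidic protein-type inhibitor, was called higher, from 3.57 and 1.77 CPM in Ctrl to 20.6 and 21.3 in TKO (2.78 ± 0.35, adjusted p = 0.0191), and lost its call without TKO 2 and under the replicate block (largest adjusted p 0.0516). The kallikrein Klk13 was called lower in spinous-like (−1.13 ± 0.19, adjusted p = 0.0362) and in basal-like cells (−2.29 ± 0.45, adjusted p = 0.0268). In basal-like cells 3 of 15 were called, beside 11.8% of all genes, and all were lower kallikreins, with Klk11 (−2.35 ± 0.28, adjusted p = 0.00657) and Klk8 (−1.54 ± 0.26, adjusted p = 0.0173) beside Klk13. Klk11 kept its call in each alternative, whereas the Klk8 and both Klk13 calls were lost without Ctrl 1 and without Ctrl 2 (largest adjusted p 0.110, 0.134 and 0.246). In hair follicle-like cells 4 of 11 were called lower, beside 4.53% of all genes, namely Klk8, Klk10, Klk11 and Hpn. Their log2 changes were between −2.69 and −1.45, with adjusted p-values of 0.0109 to 0.0486 (edgeR for all). Of these, Hpn lost its call under 8 of 14 alternatives, including the fits without Ctrl 1, Ctrl 2 or TKO 2. Klk8 lost it under 2 of 15 and Klk10 under 1 of 15. Of 8 sperm serine proteases and partners, Acr, the acrosin gene itself, was at 0 UMIs, and Acrbp, an acrosin-binding protein gene, was called lower in hair follicle-like cells (−1.08 ± 0.24, adjusted p = 0.0337), a call lost under 9 of 15 alternatives, including the fits without Ctrl 1, Ctrl 2 or TKO 1 (largest adjusted p 0.642).

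The genes with the most similar pattern were listed by Pearson's r over log2(CPM + 1) of the 16 class and library sums, among 18707 genes with at least 50 UMIs. The sums share 4 libraries, and r is a description. For Spink2 the closest were Htr1b (r = 0.99), Krt6a (0.98), Gm16096 (0.97), AA536875 (0.97), Fbp2 (0.96), Sprr2h (0.96), Krt6b (0.95) and Gm12606 (0.95). Gm16096, AA536875 and Gm12606 had only 66, 60 and 68 UMIs over all sums, and Gm12606 was called in no class. Krt6a and Krt6b are keratins induced by wounding and stress. Krt6a went from 0.196 CPM in Ctrl to 354 in TKO spinous-like cells and from 0.743 to 113 in early suprabasal-like cells, as group means, and Krt6b from 1.05 to 245 in spinous-like cells. Both belong to a keratin family with near-identical members, so their split of reads is uncertain.

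For Dpep1 the closest were Lipa (r = 0.93), AA536875 (0.90), Sat1 (0.89), Gm15675 (0.89), Htr1b (0.88), Nfe2l2 (0.88), 1110028F18Rik (0.88) and Haus2 (0.88). AA536875 and 1110028F18Rik had only 60 and 69 UMIs over all sums, and Lipa and 1110028F18Rik were called in no class. Sat1, a polyamine acetyltransferase gene, went from 45.0 CPM in Ctrl to 270 in TKO spinous-like cells as group means, and stood at 62.5 and 57.0 in basal-like cells. Nfe2l2, which encodes a factor that activates glutathione genes, went from 36.1 to 70.9 CPM in spinous-like cells. Htr1b and AA536875 were on both lists. Spink2 ranked 12th for Dpep1 and Dpep1 61st for Spink2 (r = 0.87) over the same 16 sums.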

How the data were processed

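The deposited files were 10x Genomics count matrices, 1 per library, in which the authors aligned reads to GRCm39 with Cell Ranger and counted whole-number UMI counts per gene and barcode. The file header names Cell Ranger 7.1.0 and the methods of the study a later release, and the annotation release and intron setting are not given in the sources used here. Barcodes with at least 2000 genes and under 10% mitochondrial UMIs were kept, and the highest Scrublet scores (doublet calls) were left out at 0.8% per 1000 barcodes, since the automatic threshold was not usable. Cells were clustered with scanpy 1.11.5 (2000 variable genes, 30 components corrected for library by the Harmony algorithm written out in code, 20 neighbours, Leiden resolution 1). Clusters were named from markers, and rules for leaving clusters unnamed were set after the clusters were seen. These rules compared keratinocyte types with each other, so the haemoglobin-led cluster stayed in the basal-like class. UMIs were summed per library and class and fitted with edgeR 4.0.16 (quasi-likelihood test, TMM, filterByExpr, R 4.3.3), with Benjamini-Hochberg adjustment over all genes and a threshold of 0.05.

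Each library was 1 embryo, and n = 2 per genotype. The tables held 70749496 to 89655247 UMIs each, and intervals on UMIs and shares of cells are exact 95% intervals of counting error. The members, gene lists and tests were chosen with earlier results of these data known. Genes were named by rule: neighbours that were called or nearest on each side, list genes that were called, and the 8 genes most like each member. The choice of the 6 fibroblast markers other than Dcn was made after their values were seen. Promoter windows came from GRCm39 with GENCODE annotation. The edgeR step was tested on simulated data. Alternatives covered depth, doublets, filters, clustering, DESeq2 1.42.0, left-out libraries and a replicate block. The values of 1 called neighbour of Dpep1 are not reported here.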

Additional observations from a re-analysis of the deposited data

How the results depend on the processing

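The TKO minus Ctrl difference in CPM was 18.7 and 70.7 for Dpep1 and 8.87 and 45.2 for Spink2 in early suprabasal-like and spinous-like cells. There were 102 repeats of these differences and of the counts of calls. No difference was reversed, but the members were chosen on these differences and a count has no sign, so this is no test. In 76 of the 102 repeats a difference moved by no more than the larger SD of the 2 genotypes, or a count by no more than 1.5 times. These limits are wide for Spink2 in early suprabasal-like cells, where the SD was 7.20 CPM. Thinning to 5000 UMIs gave 26.1 and 54.2 for Dpep1, with 1977 calls summed over classes in place of 4286, 3 neighbours called in place of 6 and 9 list genes in place of 16. Components left uncorrected for library gave 64.1 for Dpep1 and 0 for Spink2 in an early suprabasal-like class of 118 cells, and 34.5 for Spink2 in spinous-like cells. Leiden resolution 2 gave 15.5 for Dpep1 in early and 38.5 for Spink2 in spinous-like cells. Classes set by Krt1 plus Krt10 share gave 45.0 for Dpep1 and 25.5 for Spink2 in the early and 39.7 for Spink2 in the spinous range. No expression filter gave 8341 calls and 30 list genes. The cause of each shift was not tested.

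Leaving out each library in turn gave 16.7 to 20.7 and 59.8 to 81.7 for Dpep1, 3.78 to 13.96 and 41.7 to 48.6 for Spink2, 1254 to 5856 calls, 1 to 6 neighbours and 5 to 24 list genes. Hopx was the neighbour called in every setting. The labels number the replicates but do not pair them, and same-numbered samples correlated at −0.267 to −0.111. With the replicate block there were 3129 calls, 3 neighbours and 14 list genes, and with a crossed block, chosen after seeing the data, 9371, 10 and 30. DESeq2 gave 4964 calls, 5 neighbours and 17 list genes. Without the haemoglobin-led cluster, an alternative chosen after seeing the data, there were 1869 calls in basal-like cells in place of 2031, 5 neighbours and 16 list genes. Of 504 repeats of 33 named calls, 377 kept the call, 127 lost it and 0 reversed, and a further 6 could not be tested because the gene was under the filter.

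With 2 embryos a group and 3 or fewer Spink2 UMIs in Ctrl suprabasal classes, the size of the Spink2 ratio is limited by the Ctrl counts.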
